A study of Mus musculus with 6 samples.

Results

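The 36 genes described here drive DNA replication and cell division, and were listed by name as 13 S phase genes and 23 G2/M genes. They are 36 of the 49671 genes in the count table. All 36 were abundant enough to be tested, among 12242 tested genes. The cells were CD8 T cells from the spleens of OT-I mice, whose T cells carry a transgenic receptor for an ovalbumin peptide (SIINFEKL), and RNA was measured in 3 libraries labelled CD73 KO and 3 labelled WT. CD73 is encoded by Nt5e and makes adenosine from AMP outside the cell. All 6 libraries, WT included, came from cells given the peptide at 10 ng/mL on each of 5 days with IL-7 and IL-15 at 5 ng/mL each, replated after 48 hours, carried the treatment label Exhaustion, and were sorted as live cells. The sources used here do not give the age, the sex, the strain or the way CD73 was removed. Resting or singly stimulated cells were not analysed here, so every comparison is between stimulated cells of both genotypes. No label ties a library to its own animal or culture, and the spread behind the p-values may therefore be technical.

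A dividing cell first licenses its origins of replication, when CDC6 and CDT1 load the ring-shaped MCM2-7 helicase on DNA, and cyclin-dependent kinases then help to fire them in S phase, while E2F factors turn on the genes needed. In G2 and mitosis, cyclins A and B with CDK1, the Aurora and Polo kinases, kinesins and centromere proteins condense, align and separate the chromosomes, and the anaphase-promoting complex then destroys the cyclins. S phase genes are known targets of E2F factors, whereas many G2/M genes are known to be controlled through a promoter element called CHR (cell cycle genes homology region), often with CCAAT boxes that NF-Y binds. T cells driven by antigen divide fast, and transcripts such as Mki67 and Top2a are widely used as markers of division.

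The promoters of the 2 phases differ in how often they hold the E2F and CHR elements. Of these promoters 4 are shown, picked only among windows that hold the element of their phase. They come from a pair of licensing genes (Mcm3 and Mcm5) and from the members with the largest fold changes (Ttk and Cenpf). Each window runs from 250 bases before to 50 after the RefSeq start on GRCm38.p6 and is written 5′ to 3′ on the gene's strand. Capitals mark matches to the E2F element in the first pair and to the CHR element in the second pair. The Mcm3 window lies at chr1:20820263-20820562 on the minus strand, that of Mcm5 at chr8:75109259-75109558 on the plus strand, that of Ttk at chr9:83834439-83834738 on the plus strand and that of Cenpf at chr1:189688037-189688336 on the minus strand.
Mcm3: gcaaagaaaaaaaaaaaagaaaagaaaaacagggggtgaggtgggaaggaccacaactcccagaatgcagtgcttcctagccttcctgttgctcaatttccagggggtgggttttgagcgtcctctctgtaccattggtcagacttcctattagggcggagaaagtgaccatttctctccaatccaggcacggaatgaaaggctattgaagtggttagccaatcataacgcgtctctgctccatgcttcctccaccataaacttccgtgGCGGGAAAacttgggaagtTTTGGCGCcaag
Mcm5: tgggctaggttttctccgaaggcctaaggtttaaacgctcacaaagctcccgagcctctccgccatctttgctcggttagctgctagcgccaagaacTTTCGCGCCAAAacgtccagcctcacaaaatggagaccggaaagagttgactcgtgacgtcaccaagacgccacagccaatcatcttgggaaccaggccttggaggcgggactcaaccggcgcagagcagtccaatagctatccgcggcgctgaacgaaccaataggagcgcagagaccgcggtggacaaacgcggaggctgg
Ttk: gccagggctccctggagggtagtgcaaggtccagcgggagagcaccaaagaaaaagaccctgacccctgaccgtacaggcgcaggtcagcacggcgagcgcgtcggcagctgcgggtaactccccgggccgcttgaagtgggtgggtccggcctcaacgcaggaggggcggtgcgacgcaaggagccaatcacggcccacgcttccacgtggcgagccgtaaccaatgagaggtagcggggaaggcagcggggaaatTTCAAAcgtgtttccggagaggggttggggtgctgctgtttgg
Cenpf: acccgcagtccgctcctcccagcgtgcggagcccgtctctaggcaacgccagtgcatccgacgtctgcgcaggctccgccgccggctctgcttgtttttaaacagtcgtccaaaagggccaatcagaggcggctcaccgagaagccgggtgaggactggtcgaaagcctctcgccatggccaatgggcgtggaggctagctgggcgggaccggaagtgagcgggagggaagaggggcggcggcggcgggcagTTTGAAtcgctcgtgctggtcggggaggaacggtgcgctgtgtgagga

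The capitals begin 20 and 39 bases after the start in Mcm3 and 153 and 149 bases before it in Mcm5, where the 2 matches overlap. They begin 8 bases after the start in Ttk and 3 bases after it in Cenpf. A window was found for 29 of 36 members, all but Mcm4, Gins2, Ccne2, Ccna2, Aurkb, Kif20a and Tpx2. The E2F element was searched as TTTGGCGC, TTTCGCGC, TTTCCCGC or TTTGCCGC, the CHR element as TTTGAA or TTCGAA and the third element as CCAAT, all on both strands. Mcm7 has 2 such windows and was counted once. Matches overlapped in 1 window each of Mcm5, Mcm6, Mcm7 and Ube2c. E2F matches stood in 6 of 10 S phase members with a window (60.0%), namely Mcm3, Mcm5, Mcm6, Mcm7, Cdc6 and Cdt1. They stood in 1 of 19 G2/M members (5.26%), Cdk1, and in 2.60% of all 27025 genes with a window. The S phase members without an E2F match in this window were Ccne1, E2f1, Mcm2 and Pcna. CHR matches stood in 15 of 19 G2/M members (78.9%), in 2 of 10 S phase members (20%), Mcm2 and Mcm7, and in 21.7% of all genes. The G2/M members without one in this window were Ccnb1, Birc5, Cenpe and Nusap1. All 15 G2/M members with a CHR match also held CCAAT, which stood in 17 of 19 G2/M members (89.5%), in 6 of 10 S phase members (60.0%) and in 41.1% of all genes. Of the 50 other S phase and 50 other G2/M genes described below, 37 and 42 had a window. E2F matches stood in 32.4% of these S phase genes and in 7.14% of these G2/M genes. CHR matches stood in 21.6% and 76.2%. The third element stood in 59.5% and 64.3%, so for it the phases differed little there. Of the 32 other G2/M genes with a CHR match, 25 also held the third element. Among the G2/M members, 16 of 22 CHR matches began within 100 bases before to 50 bases after the start. Positions were not counted over all genes, so whether the matches gather near the start was not tested. Letters in a window are a description and do not show that a factor binds there.

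**Figure D1:**
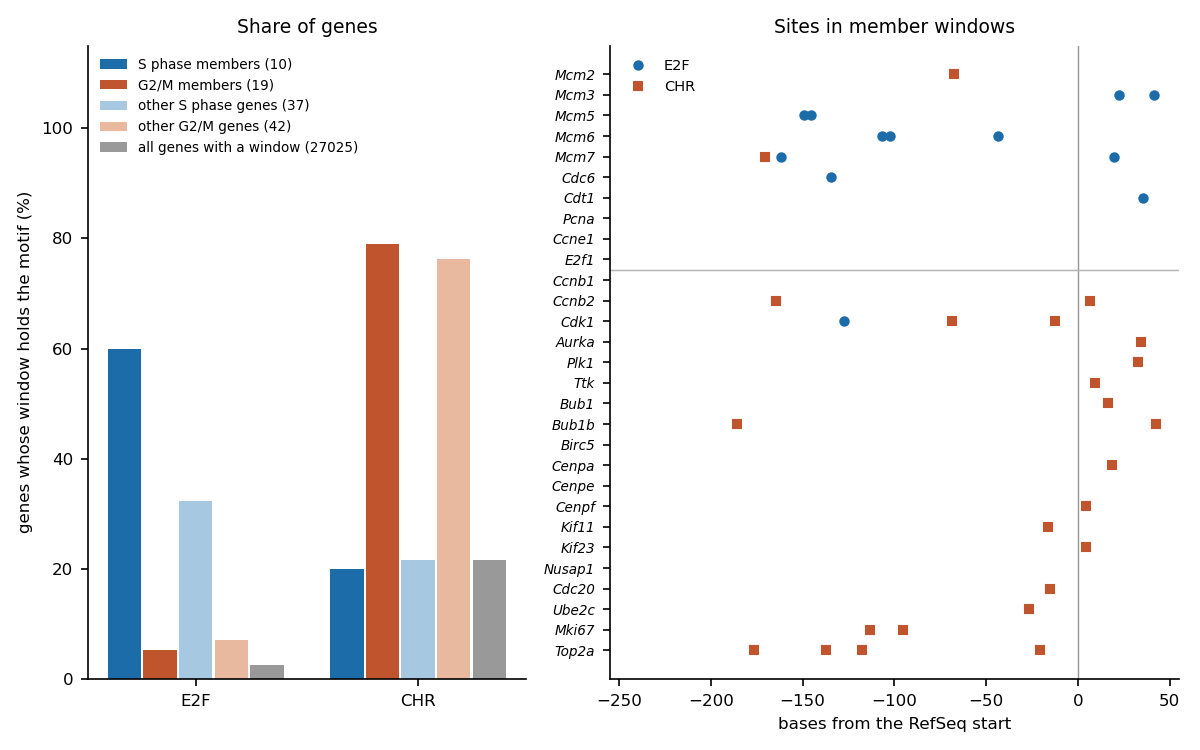
Left, the share of genes (%) whose 300-base promoter window holds an E2F or CHR match, for the members, the other cell cycle genes listed and all genes, with the number of genes with a window in brackets. Right, the centre of each match in bases from the RefSeq start for 29 members, S phase above the line and G2/M below it, with blue circles for E2F and orange squares for CHR. E2F was found in 60.0% of S phase members and 5.26% of G2/M members, CHR in 20% of S phase members and 78.9% of G2/M members.

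Depth ran from 6934150 to 19382950 counts per library, the lowest in WT replicate 3, and the least counted member value was 355 counts. Nt5e, the targeted gene, was at 3.67, 8.45 and 8.47 CPM in the CD73 KO libraries, against 22.55, 5.22 and 37.4 CPM in the WT libraries, where CPM are counts scaled to a common total with TMM factors. The library labelled WT replicate 2 thus lay inside the CD73 KO range, and Nt5e, at a log2 fold change of -1.67 ± 0.72 (SE), was not called by edgeR (adjusted p = 0.534). Without that library it was -2.14 (edgeR adjusted p = 0.339), and without WT replicate 3 it was -1.06 (edgeR adjusted p = 0.578). The phase medians are therefore also given without WT replicate 2. The 6 CD8 T cell markers summed to 3600 to 3930 CPM in CD73 KO, against 3190 to 3400 CPM in WT, with none of them absent. Of 8 myeloid markers, Lyz2, Csf1r, C1qa and Spi1 had no count in any library, and the list summed to 81.6 to 103 CPM in CD73 KO, against 54.9 to 72.0 CPM in WT, most of it Ctss. Of 7 B cell markers, Ms4a1 and Pax5 had no count, and the list summed to 778 to 867 CPM in CD73 KO, against 709 to 783 CPM in WT, most of it Ighm. The 5 NK cell markers, led by Nkg7, summed to 880 to 1000 CPM in CD73 KO, against 828 to 948 CPM in WT. The 4 CD4 T cell markers, led by Zbtb7b, summed to 24.3 to 28.3 CPM in CD73 KO, against 28.0 to 35.5 CPM in WT, and the 4 erythroid markers to at most 0.106 CPM in CD73 KO, against 0.426 CPM in WT. The part of such cells in the results below was not tested. In bulk RNA, fewer dividing cells and less of a transcript in each cell cannot be told apart.

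Replication and mitosis genes ran at close to the same level in both genotypes. None of the 36 passed edgeR's quasi-likelihood test, where 0.0572% of all tested genes did. DESeq2 called none of them either, where it called 0.81% of 12222 genes. At an unadjusted p under 0.05 the count was 1 member, the spindle checkpoint kinase gene Ttk, by either tool. The share was 9.64% of 12242 genes by edgeR and 4.96% of 21314 genes by DESeq2, which was run without the filter on low counts. The 95% intervals of the fold change lay between 1/1.5 and 1.5-fold for 34 of 36 members, all but Ttk and Cenpf, and within 2-fold for all 36. These intervals rest on all 6 libraries, the one labelled WT replicate 2 included. They are too narrow if the spread between libraries is only technical. Among S phase members 12 of 13 had a lower mean in CD73 KO, and their median log2 fold change was -0.07. Among G2/M members 12 of 23 were higher, and the median was 0.04. Over all tested genes 47.7% were lower and 52.3% higher, with a median of 0.01. The groups did not overlap for 3 members, Ttk and Cdk1 on the higher side, where 7.59% of all tested genes lay, and Gins2 on the lower side, where 7.6% lay.

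**Figure D2:**
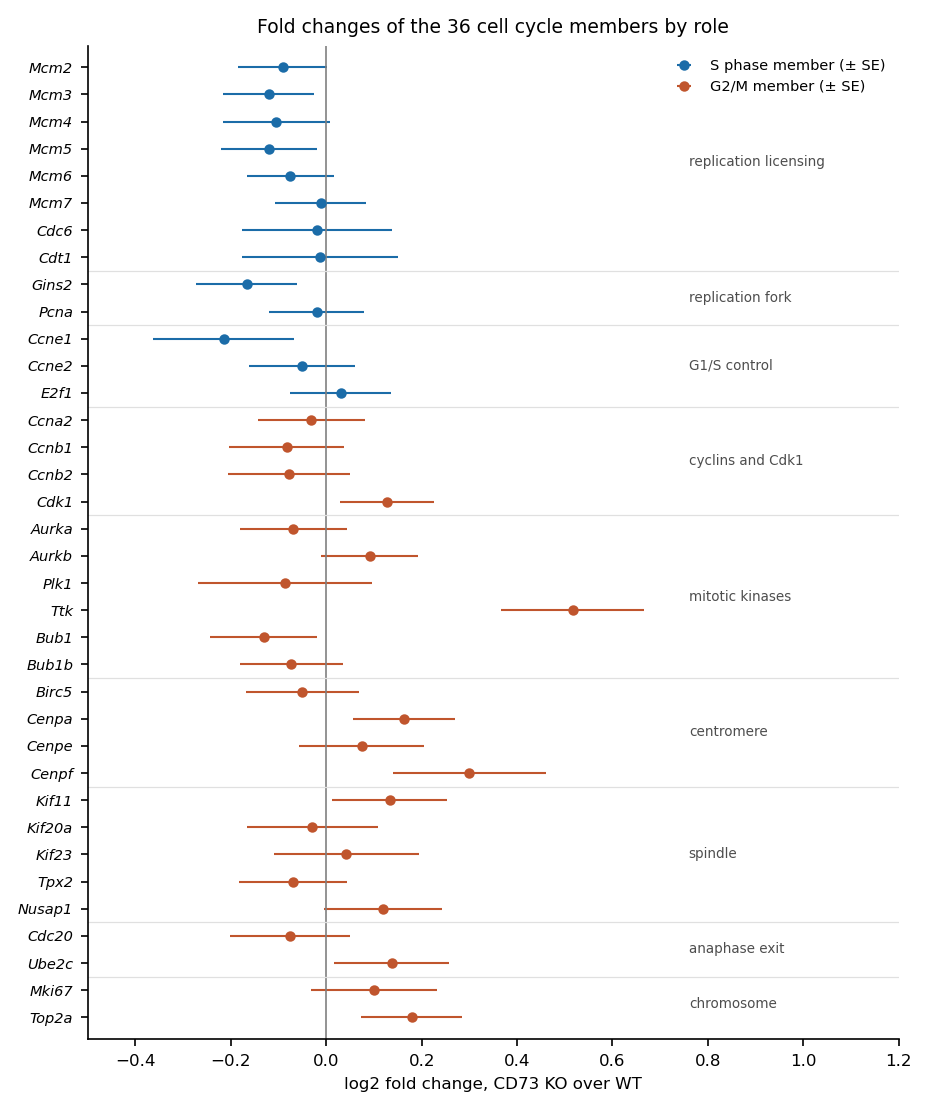
Fold change of each member on a log2 scale, CD73 KO over WT, from edgeR's fit of 3 libraries a genotype; bars are ± SE, blue marks S phase and orange G2/M members, and roles stand at the right. All but Ttk, at 0.52, lie between -0.22 and 0.30.

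The 8 licensing genes lay slightly lower in CD73 KO, but Mcm7, Cdc6 and Cdt1 lay higher once CD73 KO replicate 2 was left out. Mcm3, a helicase subunit (ENSMUSG00000041859, chromosome 1, 20802968 to 20820312, mm10), was at 562, 512 and 504 CPM in CD73 KO, against 592, 567 and 557 CPM in WT. Of the CD73 KO libraries only replicate 1 reached the WT range. Its log2 fold change was -0.12 ± 0.10 (SE, edgeR adjusted p = 0.696), with a 95% interval of 0.794 to 1.06 in fold. Mcm5, another subunit (ENSMUSG00000005410, chromosome 8, 75109569 to 75128439), was at 592, 534 and 640 CPM in CD73 KO, against 662, 633 and 626 CPM in WT. CD73 KO replicate 2 was the lowest, and replicate 3 lay inside the WT range (log2 fold change -0.12 ± 0.10, edgeR adjusted p = 0.717). The other helicase subunits had log2 fold changes of -0.09 (Mcm2), -0.10 (Mcm4), -0.07 (Mcm6) and -0.01 (Mcm7). The helicase loaders Cdc6 and Cdt1 were at -0.02 and -0.01, but their libraries were far apart in one genotype. Cdt1 was at 167, 104 and 163 CPM in CD73 KO, against 146, 147 and 144 CPM in WT (144.6 ± 35.5 and 145.8 ± 1.41 CPM, SD, n = 3 each). Cdc6 was at 164, 110 and 109 CPM in CD73 KO, against 126, 139 and 124 CPM in WT. For both genes the highest and the lowest library were CD73 KO libraries. Across the S phase members the SD was larger in CD73 KO for 12 of 13 genes, against 63.3% of all tested genes and 12 of 23 G2/M members.

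At the fork, Gins2, a subunit of the GINS complex that activates the helicase (ENSMUSG00000031821, chromosome 8, 120578633 to 120589304), was at 53.0, 58.1 and 60.2 CPM in CD73 KO, against 64.9, 63.8 and 63.4 CPM in WT. Every CD73 KO library lay below every WT library, yet the log2 fold change of -0.17 ± 0.11 did not pass the test (edgeR adjusted p = 0.639). Exons of Gse1 on the other strand cover 67.3% of the exonic bases of Gins2, and the sources used here do not give the strand setting of the counting, so reads of the 2 genes may be mixed. Pcna, the sliding clamp of the DNA polymerases (ENSMUSG00000027342, chromosome 2, 132249162 to 132253314), was at 798, 681 and 703 CPM in CD73 KO, against 739, 761 and 712 CPM in WT. The groups overlapped fully, with a log2 fold change of -0.02 ± 0.10 (edgeR adjusted p = 0.964) and a 95% interval of 0.846 to 1.15 in fold.

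Of the 3 G1/S regulators, 2 lay lower in CD73 KO and 1, E2f1, lay slightly higher. Ccne1, which encodes cyclin E1 (ENSMUSG00000002068, chromosome 7, 38097984 to 38107534), was at 79.6, 97.5 and 122 CPM in CD73 KO, against 107, 121 and 118 CPM in WT. CD73 KO replicate 1 was the lowest and CD73 KO replicate 3 the highest of all 6. Ccne1 had the lowest fold change of the S phase members, -0.22 ± 0.15 on the log2 scale (edgeR adjusted p = 0.663), and without CD73 KO replicate 1 it was -0.08. E2f1, the transcription factor that turns on S phase genes (ENSMUSG00000027490, chromosome 2, 154559407 to 154569892), was at 60.2, 56.5 and 63.1 CPM in CD73 KO, against 60.1, 56.8 and 59.1 CPM in WT. It was the highest of the S phase members by fold change, at 0.03 ± 0.11 (edgeR adjusted p = 0.948). Without CD73 KO replicate 3 its log2 fold change was -0.009. Ccne2, cyclin E2, was at -0.05.

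**Figure D3:**
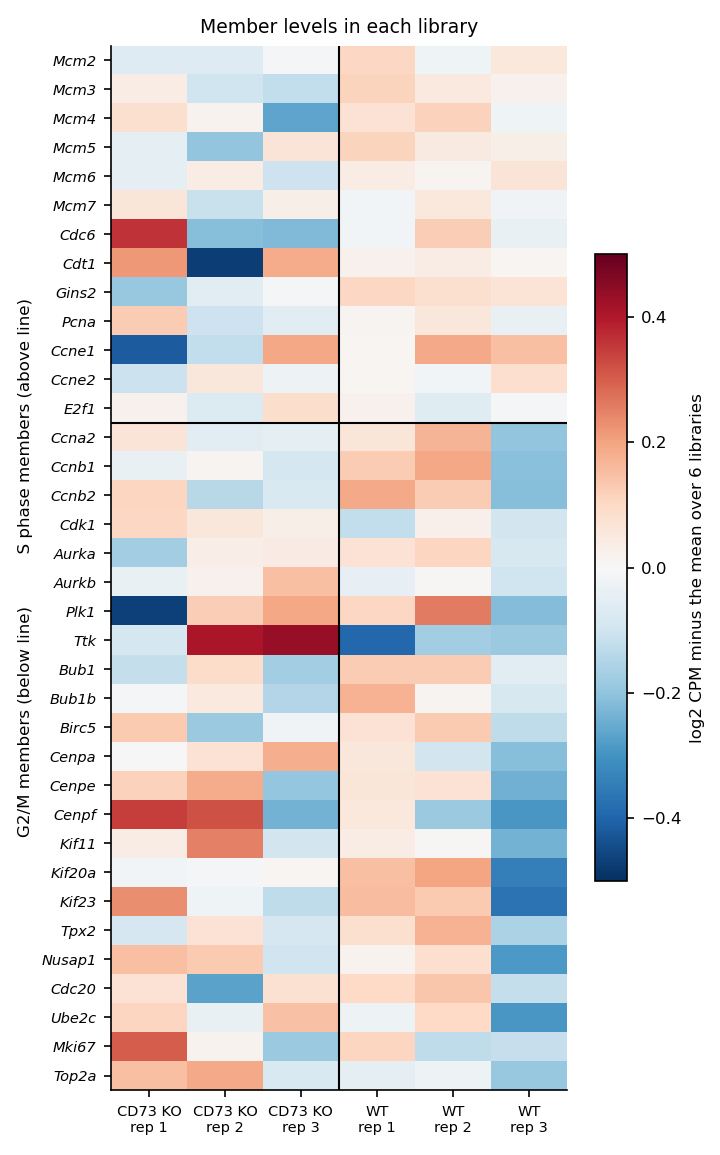
Level of each member in each library as log2 CPM minus its mean over the 6 libraries (red higher, blue lower; colour scale in log2 units), with the 3 CD73 KO libraries left of the vertical line and the 3 WT libraries right of it. S phase members stand above the horizontal line and G2/M members below it, where WT replicate 3 is the lowest library for 14 of 23.

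Among the cyclins and their kinase, Ccnb1, which encodes cyclin B1 (ENSMUSG00000041431, chromosome 13, 100778650 to 100786570), was at 193, 200.3 and 187 CPM in CD73 KO, against 216, 227 and 171 CPM in WT. WT replicate 3 was the lowest and WT replicate 2 the highest, with the CD73 KO libraries between them (log2 fold change -0.08 ± 0.12, edgeR adjusted p = 0.849). Ccnb2 and Ccna2 were at -0.08 and -0.03. Cdk1, the mitotic kinase these cyclins activate, was at 192, 186 and 183 CPM in CD73 KO, against 164, 182 and 168 CPM in WT. Its groups did not overlap, by less than 1 CPM, and its log2 fold change was 0.13 ± 0.10 (edgeR adjusted p = 0.693).

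Among the mitotic kinases, Ttk, which encodes the checkpoint kinase MPS1 (ENSMUSG00000038379), stood apart from the other members. Its level was 61.0, 85.8 and 87.5 CPM in CD73 KO, against 49.3, 57.4 and 56.9 CPM in WT (78.1 ± 14.9 and 54.5 ± 4.55 CPM, SD, n = 3 each). All CD73 KO libraries lay above all WT libraries, replicate 1 by little. The log2 fold change was 0.52 ± 0.15, a fold of 1.43 with a 95% interval of 1.14 to 1.80 for this gene alone, and the gene did not pass the test across all genes (edgeR adjusted p = 0.348). It was called in 1 of 11 alternatives, without a filter on low counts (adjusted p = 0.0140), where 298 genes (1.4%) were called, and over the alternatives the adjusted p ran from 0.0140 to 0.999 and the log2 fold change from 0.43 to 0.66. Ttk lies on chromosome 9 at 83834689 to 83872389, 4.45 Mb from Nt5e. The next tested gene towards Nt5e is Bckdhb (83925145 to 84124240), a dehydrogenase subunit of branched-chain amino acid breakdown, which was at 14.2 CPM in CD73 KO, against 5.77 CPM in WT. Bckdhb had a log2 fold change of 1.29 ± 0.19 and passed the test (edgeR adjusted p = 0.0495), but it did so in only 4 of 11 alternatives, of which only 1 left out a library, CD73 KO replicate 1. Beyond Bckdhb the processed pseudogenes Gm8226 and Gm8228 had 0.16 ± 0.21 and 0.23 ± 0.34 (edgeR adjusted p = 0.831 and 0.851). On the other side of Ttk, Lca5 had 0.55 ± 0.22 and Hmgn3 -1.14 ± 0.44 (edgeR adjusted p = 0.482 each). The processed pseudogene Rps27a-ps2 on that side had 0.44 ± 0.34 (edgeR adjusted p = 0.693). The other members on this chromosome, Ccnb2 at 17.9 Mb and Kif23 at 26.4 Mb from Nt5e, had log2 fold changes of -0.08 and 0.04. Whether the position bears on the level of Ttk was not tested.

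The checkpoint kinase Bub1 (ENSMUSG00000027379, chromosome 2, 127801122 to 127831865), which acts with Ttk at unattached chromosomes, was at 163, 189 and 157 CPM in CD73 KO, against 194, 194 and 171 CPM in WT. CD73 KO replicate 2 lay inside the WT range, and the log2 fold change of -0.13 ± 0.11 was the lowest of the G2/M members (edgeR adjusted p = 0.720). Bub1b, a checkpoint protein, was at -0.07. The Aurora kinase genes Aurka and Aurkb were at -0.07 and 0.09. Plk1, the Polo kinase, had the widest interval of all members relative to its fold, 0.710 to 1.25, with 98.5 CPM in CD73 KO replicate 1 and 117 to 163 CPM in the other 5 libraries.

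Of the centromere genes, Cenpf, a large kinetochore protein of G2 and mitosis (ENSMUSG00000026605, chromosome 1, 189640606 to 189688086), was at 190, 186 and 127 CPM in CD73 KO, against 155, 131 and 122 CPM in WT. CD73 KO replicates 1 and 2 were above all WT libraries and replicate 3 was not (log2 fold change 0.30 ± 0.16, edgeR adjusted p = 0.575). Cenpa, the histone H3 variant that marks centromeres (ENSMUSG00000029177, chromosome 5, 30666777 to 30674830), was at 301, 317 and 342 CPM in CD73 KO, against 313, 283 and 261 CPM in WT. Only WT replicate 1 reached the CD73 KO range (log2 fold change 0.16 ± 0.11, edgeR adjusted p = 0.647). The kinesin Cenpe was at 0.07, and Birc5, the survivin subunit of the chromosomal passenger complex, at -0.05. The spindle genes lay between -0.07 and 0.13, namely Tpx2, an activator of Aurora A, at -0.07, the kinesins Kif20a, Kif23 and Kif11 at -0.03, 0.04 and 0.13, and Nusap1, a microtubule binder, at 0.12. The anaphase genes Cdc20, which activates the anaphase-promoting complex, and Ube2c, its ubiquitin-conjugating enzyme, were at -0.08 and 0.14.

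Mki67, which encodes the division marker Ki-67 (ENSMUSG00000031004, chromosome 7, 135689784 to 135716361), was at 1706, 1397 and 1217 CPM in CD73 KO, against 1490, 1266 and 1275 CPM in WT. CD73 KO libraries were both the highest and the lowest (log2 fold change 0.10 ± 0.13, edgeR adjusted p = 0.831), and without CD73 KO replicate 1 the value was -0.05. Top2a, the topoisomerase that untangles chromosomes (ENSMUSG00000020914, chromosome 11, 98992943 to 99024189), was at 1353, 1389 and 1157 CPM in CD73 KO, against 1177, 1199 and 1067 CPM in WT. CD73 KO replicate 3 lay inside the WT range and the other CD73 KO libraries above it (log2 fold change 0.18 ± 0.11, edgeR adjusted p = 0.608).

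The balance of S phase to G2/M transcripts was lower on average in CD73 KO, but it also varied between libraries of one genotype. The mean S phase level relative to the 6-library mean, on a log2 scale, was 0.00, -0.11 and -0.02 in CD73 KO and 0.04, 0.05 and 0.03 in WT. The mean G2/M level was 0.04, 0.06 and -0.02 in CD73 KO and 0.05, 0.06 and -0.19 in WT. The S phase mean minus the G2/M mean was -0.04, -0.16 and 0.00 in CD73 KO and 0.00, -0.01 and 0.22 in WT. CD73 KO replicate 3 and WT replicates 1 and 2 lay within 0.01 of each other, with CD73 KO replicate 2 below and WT replicate 3 above. The group means were -0.07 ± 0.09 and 0.07 ± 0.13 (SD, n = 3 each), a difference of -0.14, and without WT replicate 3 the difference was -0.06. For the 50 other S phase and 50 other G2/M genes described below it was -0.107, and -0.045 without WT replicate 3. Taken from the mean fold changes of edgeR's fit, the difference for the members was -0.13, and -0.17 without WT replicate 2. WT replicate 3, the library of fewest counts, was the lowest for 14 of 23 G2/M members and for none of the 13 S phase members. CD73 KO replicate 2 was the lowest for 6 of 13 S phase members. Without WT replicate 3 the median log2 fold change of the G2/M members was -0.11, with 10 of 23 higher, and that of the S phase members was -0.06, with 12 of 13 lower. Without the library labelled WT replicate 2 these medians were 0.06 and -0.08, with 15 of 23 G2/M members higher and 10 of 13 S phase members lower. Without CD73 KO replicate 2, 8 of 13 S phase members were lower, with a median of -0.08. The part of depth in these shifts was not tested.

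**Figure D4:**
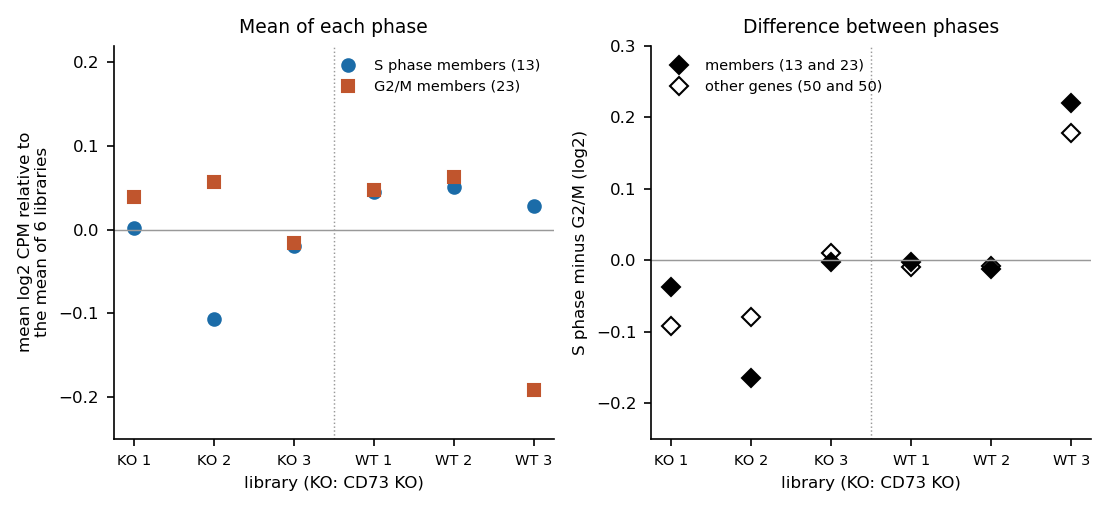
Left, the mean of log2 CPM relative to the 6-library mean over S phase members (blue circles) and G2/M members (orange squares) in each library. Right, S phase minus G2/M in log2 units for the members (filled) and for the 50 other S phase and 50 other G2/M genes (open), where WT replicate 3 is at 0.22 and 0.18.

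Levels of different genes are compared here as CPM per kb of exon, with the exons of all GENCODE M21 transcripts of a gene joined. This length is 6.96 kb for Mcm2, against 3.59 kb (Mcm4) to 4.67 kb (Mcm6) for the other helicase subunits. It is 5.23 kb for Cdc6 and 15.4 kb for Cenpf. Which transcripts the cells made was not tested, so the order of genes depends on the lengths taken. Members ran from 9.84 CPM per kb for Cenpf to 305 CPM per kb for Pcna, averaged over 6 libraries. The clamp Pcna was at 303 CPM per kb in CD73 KO and 307 in WT, and 5 of the 6 helicase subunits came close together below it, from 130.5 (Mcm7) to 171 (Mcm6) CPM per kb, with Mcm2 at 51.2. The helicase loaders were lower, at 24.6 (Cdc6) and 46.2 (Cdt1) CPM per kb. The G2/M genes were led by Mki67 at 138, Top2a at 136 and Ccnb2 at 133 CPM per kb, which differ by less than the spread of their libraries. Medians were 51.2 CPM per kb for S phase and 55.8 CPM per kb for G2/M members. The ratio of the highest to the lowest of the 6 libraries had a median of 1.17 for S phase members, 1.32 for G2/M members and 1.46 for all tested genes, among which low genes carry more counting error.

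**Figure D5:**
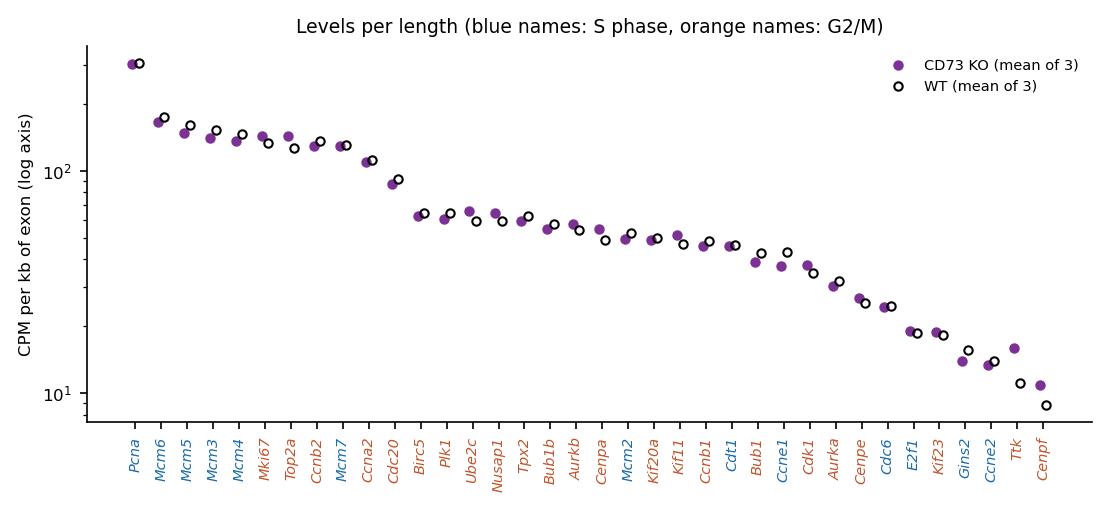
Mean level of each member per kb of exon (log axis) in CD73 KO (filled, left of each pair) and WT (open), 3 libraries each, ordered by level; blue names are S phase and orange names G2/M genes. Pcna is the highest at 303 CPM per kb in CD73 KO and 307 in WT, and Cenpf the lowest.

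Reads of some members can be shared with other loci. Of the pseudogenes looked up here, processed or unprocessed, 22 match 16 members at transcript level, and 13 of the 22 had any count. None of the 22 took more counts than 1.70% of its member, the highest being Ccnb1-ps (99.2% identical to Ccnb1). These counts do not show how many reads were shared, since reads that match both loci may be counted in neither. Besides Gins2, exons on the other strand cover 29.3% of the exonic bases of Kif20a (Cdc23), 22.8% of Ube2c (Tnnc2, at most 4 counts), 17.4% of Ccne2 (Ints8) and 12.5% of Ccna2 (Exosc9).

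Other genes of the cell cycle also showed small differences. Of 50 other S phase genes 36 were lower in CD73 KO (median log2 fold change -0.05), and none passed the test by edgeR or DESeq2. By edgeR 2 of 50 had an unadjusted p under 0.05, where 9.64% of all tested genes did, and for 4 the CD73 KO libraries all lay below the WT libraries, where 7.6% of all tested genes did. The 2 were Dut, the enzyme that keeps uracil out of DNA, at 218 ± 15.2 CPM in CD73 KO, against 262 ± 17.6 CPM in WT (SD, n = 3 each), and Ung, which removes it, at 42.2 ± 1.24 and 50.7 ± 1.72 CPM. Their log2 fold changes were -0.27 ± 0.10 and -0.27 ± 0.11 (edgeR adjusted p = 0.481 and 0.492), and neither overlapped between groups. On the higher side Pole2 and Pole, subunits of DNA polymerase epsilon, had 0.16 ± 0.11 and 0.15 ± 0.10 (edgeR adjusted p = 0.648 and 0.668). Of 50 other G2/M genes 32 were higher (median 0.05), and none passed by edgeR or DESeq2. By edgeR 3 of 50 had an unadjusted p under 0.05, and for 3 the CD73 KO libraries all lay above the WT libraries, beside 9.64% and 7.59% of all tested genes. Aspm, a spindle pole protein, was at 111 ± 18.8 CPM in CD73 KO, against 87.0 ± 3.33 CPM in WT, and Hjurp, which loads the CENPA histone at centromeres, at 396 ± 41.4 and 323 ± 17.6 CPM (SD, n = 3 each). Both had no overlap between groups, with log2 fold changes of 0.36 ± 0.13 and 0.29 ± 0.11 (edgeR adjusted p = 0.448 each). On the lower side Mybl2, a transcription factor of dividing cells, and Ska1, a kinetochore protein, had -0.14 ± 0.10 and -0.15 ± 0.11. Without WT replicate 3 the medians were -0.02 for the other S phase genes, with 28 of 50 lower, and 0.00 for the other G2/M genes, with 24 of 50 higher. Without the library labelled WT replicate 2 they were -0.06, with 36 of 50 lower, and 0.06, with 38 of 50 higher.

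Of 10 genes of G1 cyclins and kinases 9 were tested, and none passed by edgeR or DESeq2, with none at an unadjusted p under 0.05 by either. E2f2 and Ccnd2 lay higher, at 0.16 ± 0.11 and 0.16 ± 0.12 (log2 fold change ± SE), and Ccnd3, a D cyclin, and Cdk4, its kinase, lay lower, at -0.14 ± 0.12 and -0.10 ± 0.10. Of 20 genes listed as brakes of the cycle 17 were tested, and 12 of these were higher in CD73 KO. Their median log2 fold change was 0.22, and it was 0.09 without CD73 KO replicate 1. The median ratio of their highest to their lowest library was 1.67. None passed by edgeR, and 6 of 17 had an unadjusted p under 0.05, where 9.64% of all tested genes did. DESeq2 called 1, Ccng1, where it called 0.81% of 12222 genes. The groups did not overlap for 4 brakes on the higher and 3 on the lower side, beside 7.59% and 7.6% of all tested genes. Ccng1, which encodes cyclin G1, was at 155, 184 and 193 CPM in CD73 KO, against 304, 355 and 245 CPM in WT. Every CD73 KO library was below every WT library, with a log2 fold change of -0.77 ± 0.15 (edgeR adjusted p = 0.149). Cdkn1a, which encodes the CDK inhibitor p21, was at 21.2, 16.04 and 14.2 CPM in CD73 KO, against 24.2, 34.7 and 23.5 CPM in WT (log2 fold change -0.67 ± 0.20, edgeR adjusted p = 0.361). The groups did not overlap for this gene either. On the higher side Btg2 and Btg1, antiproliferative genes of quiescent lymphocytes, had 0.63 ± 0.15 and 0.56 ± 0.15 (edgeR adjusted p = 0.287 and 0.319). Btg2 was at 32.0 ± 2.63 CPM in CD73 KO, against 20.7 ± 3.27 CPM in WT, and Btg1 at 237 ± 50.8 and 161 ± 11.96 CPM (SD, n = 3 each), with no overlap for either.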

How the data were processed

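RNA of 3 CD73 KO and 3 WT libraries was read from raw counts of reads per gene, as deposited. Per the submitters' processing notes, fastp, HISAT2, featureCounts and the mm10 build were used, with versions, annotation and strand setting not given in the sources used here. A symbol was found for 49326 of 49671 identifiers. Counts passing filterByExpr (minimum count 10, minimum total count 15) were scaled with TMM factors and compared with edgeR 4.0.16 (quasi-likelihood F-test, robust, legacy fit, R 4.3.3), with Benjamini-Hochberg adjustment over 12242 genes and a threshold of 0.05. The SE is the log2 fold change over the square root of F, and 95% intervals use the fit's degrees of freedom. The fit was tested on simulated data. Alternatives were RLE factors, library size alone, no filter, DESeq2 1.42.0, the replicate number as a block, and each library left out. Positions and exon lengths come from GENCODE M21 (GRCm38, which mm10 names), promoters from RefSeq. Pseudogene transcripts were matched with blastn 2.17.0 (E-value limit 1e-20, at least 70% covered). The members, lists and tests were chosen with earlier results of these data known. Values in every library are given for Mki67, Pcna, the 4 members of smallest p in each phase and those needed for 2 per direction, and of the other lists the 2 of smallest p in each direction are named. Library values of Cdc6, Cdt1, Cdk1 and Plk1, and the neighbours of Ttk, were chosen after their values were seen.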

Additional observations from a re-analysis of the deposited data

How the results depend on the processing

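All 36 members kept their direction with RLE factors, library size alone, no filter, DESeq2 and the block. Leaving out single libraries turned the direction of 13, whose log2 fold changes then ran from -0.047 to 0.206 (Mki67), -0.128 to 0.045 (Ccna2), -0.152 to 0.029 (Cdc20), -0.207 to 0.088 (Plk1), -0.138 to 0.028 (Birc5), -0.021 to 0.178 (Cenpe), -0.181 to 0.061 (Kif20a), -0.108 to 0.127 (Kif23), -0.052 to 0.038 (Mcm7), -0.098 to 0.025 (Pcna), -0.248 to 0.077 (Cdc6), -0.135 to 0.178 (Cdt1) and -0.009 to 0.071 (E2f1). With a library left out, calls among all genes ran from 4 to 8, S phase members higher in CD73 KO from 1 to 5, the G2/M median from -0.108 to 0.089, the brakes' median from 0.091 to 0.30 and the S phase minus G2/M difference of mean fold changes from -0.167 to -0.059 (-0.13 with all). Without a filter 298 genes were called, with 1 member (Ttk) and 5 brakes (Cdkn1a, Cdkn2b, Btg1, Btg2 and Ccng1); DESeq2 called 99 genes, with 1 brake (Ccng1) and no member. Cdkn2b had at most 20 counts. The cause was not tested. With the replicate number as a block 5 genes were called, no member among them, and the S phase minus G2/M difference was -0.14. No label says what the replicate numbers mark, so they were not taken as pairs. Depth fell from replicate 1 to replicate 3 in both genotypes. Same-numbered libraries deviated from their group means with correlations of 0.19, -0.18 and 0.05. These cannot decide whether the numbers are pairs, since the deviations of 3 libraries from their own mean depend on each other. Between libraries of unlike number the correlations ran from -0.36 (CD73 KO 1 with WT 3) to 0.37 (CD73 KO 2 with WT 3). The medians of the other lists under these settings were added after seeing the data.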
